A study of Mus musculus with 14 samples.

Results

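Smooth muscle contractile genes were followed in mouse fibroblasts undergoing reprogramming: the actins Acta2 and Actg2, the myosin chains Myl9 and Myh11, and the thin filament genes Tagln, Cnn1, Cnn2, Cald1, Tpm1 and Tpm2. The 10 genes were chosen by name as smooth muscle and myofibroblast genes, with earlier results of these data known. All 10 were among the 19935 genes with a named probe set, and each had 1 probe set. Expression came from 14 Affymetrix whole-transcript arrays as log2 values, which cannot be compared between genes because probe sets differ in brightness. Embryonic fibroblasts from ICR mice, grown in mouse ES cell medium, received SKO with HDAC7, SKO with MEF2C, SKO with an empty Flag vector, or GFP without SKO, and were lysed at day 6 or day 10. Each SKO group had 2 arrays a day and GFP had 1, and the labels number the SKO arrays as experiment 1 and 2 without saying that these were separate cultures, so p-values may measure technical spread alone. SKO is not spelled out there; Sox2, Klf4 and Oct4 is the common reading. HDAC7 belongs to the class IIa histone deacetylases, which bind and repress MEF2 transcription factors such as MEF2C. Feeder cells were removed before lysis.

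In smooth muscle and in activated fibroblasts, actin filaments slide on myosin, and phosphorylation of the myosin regulatory light chain starts contraction. Tropomyosins, calponins and caldesmon lie along the actin filament and modulate it. Many of these genes are known targets of serum response factor (SRF) and its cofactors of the myocardin family, which act through CArG boxes in promoters and introns. Cultured fibroblasts commonly express several of them, most of all Acta2, a marker of myofibroblasts.

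RefSeq promoter windows on GRCm38.p6 were found for 7 of the 10 genes, with 8 windows because Cald1 has 2. Tagln, Myh11 and Actg2 had no window and were not searched. The 250 bases before the start are shown for 4 genes. These are Acta2, Myl9 and Cnn2, the only windows with a CArG box or a near match, and Cnn1, among the genes that changed most. Capitals mark such a box, allowing at most 1 of its 6 central bases to be G or C, or the letters CATTCC on either strand, the core of the MCAT element.
Acta2 at chr19:34255374-34255623, minus strand: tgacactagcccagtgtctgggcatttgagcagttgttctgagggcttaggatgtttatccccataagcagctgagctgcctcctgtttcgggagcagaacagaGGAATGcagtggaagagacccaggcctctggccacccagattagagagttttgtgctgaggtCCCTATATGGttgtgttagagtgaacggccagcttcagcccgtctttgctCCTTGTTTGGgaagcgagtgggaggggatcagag
Myl9 at chr2:156775214-156775463, plus strand: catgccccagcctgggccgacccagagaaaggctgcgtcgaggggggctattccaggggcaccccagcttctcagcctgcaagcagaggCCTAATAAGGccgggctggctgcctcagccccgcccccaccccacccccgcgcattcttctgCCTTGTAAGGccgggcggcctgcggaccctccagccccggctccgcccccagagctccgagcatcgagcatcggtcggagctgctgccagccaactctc
Cnn2 at chr10:79988350-79988599, plus strand: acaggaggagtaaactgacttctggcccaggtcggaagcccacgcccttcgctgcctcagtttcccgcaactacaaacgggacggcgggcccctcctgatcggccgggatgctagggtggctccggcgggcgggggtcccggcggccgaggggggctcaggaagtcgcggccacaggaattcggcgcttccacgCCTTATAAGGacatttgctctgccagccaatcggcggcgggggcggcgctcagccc
Cnn1 at chr9:22099003-22099252, plus strand: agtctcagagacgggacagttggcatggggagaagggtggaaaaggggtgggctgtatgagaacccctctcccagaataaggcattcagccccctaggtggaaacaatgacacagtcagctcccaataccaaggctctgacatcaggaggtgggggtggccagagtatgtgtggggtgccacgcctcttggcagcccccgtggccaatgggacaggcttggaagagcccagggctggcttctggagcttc
An exact CArG box stood in 2 of the 8 windows (Myl9 and Cnn2) and in 1.47% of 32851 RefSeq windows of the same length. With 1 central base off it stood in 3 of 8 (Acta2, Myl9 and Cnn2) and in 8.59% of all. CATTCC stood in 3 of 8 (Acta2, Tpm1 and 1 window of Cald1) and in 12.6% of all. The MEF2 site stood in 0 of 8 and in 0.508% of all. TATAAA stood in 1 of 8 (Cald1) and in 12.4% of all. All motifs were read on both strands, and every exact CArG box also counts as a near match. In Acta2 the near matches began at -84 and -34 from the start, and in Myl9 the exact box began at -161 and the near match at -99. The Cnn1 window held none of these. These are matches of letters and not measured sites.

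The transduced factors were high on the arrays labelled with them. Hdac7 read 11.16 to 11.38 on SKO+HDAC7 arrays, against 6.88 to 7.01 on SKO+Flag arrays. Mef2c read 9.48 to 9.93 on SKO+MEF2C arrays, against 6.43 to 6.81 on SKO+Flag arrays. Array medians lay between 5.68 and 5.76. The 6 fibroblast markers averaged 9.84 to 10.17 on SKO+HDAC7 arrays, 10.11 to 10.19 on SKO+MEF2C arrays, 10.06 to 10.13 on SKO+Flag arrays and 10.79 to 11.25 on GFP arrays, and none lay below the array median throughout. Of the 6 defining smooth muscle markers, Myocd, which encodes the SRF cofactor myocardin, lay below the median on all 14 arrays (4.93 to 5.24). These 6, which include the members Myh11 and Cnn1, averaged 5.52 to 5.97 on SKO+HDAC7 arrays, 6.02 to 6.40 on SKO+MEF2C arrays, 5.55 to 6.13 on SKO+Flag arrays and 6.85 to 6.97 on GFP arrays. With HDAC7 1 of the 6 fell (Cnn1) and with MEF2C 3 rose (Cnn1, Myh11 and Des). The SKO+Flag day 10 values of Myh11 and Des lie below the array medians, so the size of their rises is uncertain. Smtn was at -0.01 with HDAC7 and -0.01 with MEF2C, Lmod1 at 0.03 and 0.14, and Myocd at 0.12 and 0.03, none past the limma threshold.

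Most contractile genes were lower in SKO cells with HDAC7 than with the empty vector, and most were higher with MEF2C. With HDAC7, 8 of 10 fell and 0 rose as the mean of both days, where 6.06% of all 19935 genes fell; the largest falls were in Myl9 (2.24-fold) and Tagln (2.14-fold). With MEF2C, 9 of 10 rose and 0 fell, where 5.49% of all genes rose. The largest rises were in Cnn1 (2.07-fold), Myl9 (1.99-fold) and Tagln (1.96-fold). The Cnn1 rise uses SKO+Flag day 10 arrays that lie close to the array median, so its size is uncertain. The members' median log2 difference was -0.61 with HDAC7, beside 0.02 over all genes, and 0.48 with MEF2C, beside 0.01 over all genes. Calls are limma adjusted p under 0.05 over all genes. Because the members were chosen with earlier results of these data known, the shares over all genes are background and not a test of the set. Both comparisons share the SKO+Flag arrays. The comparison without them, SKO+HDAC7 against SKO+MEF2C, had all 10 members lower in SKO+HDAC7, where 11.8% of all genes were lower. These 3 counts were the same under every alternative run except a required difference of at least 1, which left 2, 1 and 5. The shares over all genes under that cut are not given here, so those counts have no background beside them. In bulk RNA, fewer cells expressing a gene and less RNA per cell cannot be told apart.

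**Figure D1:**
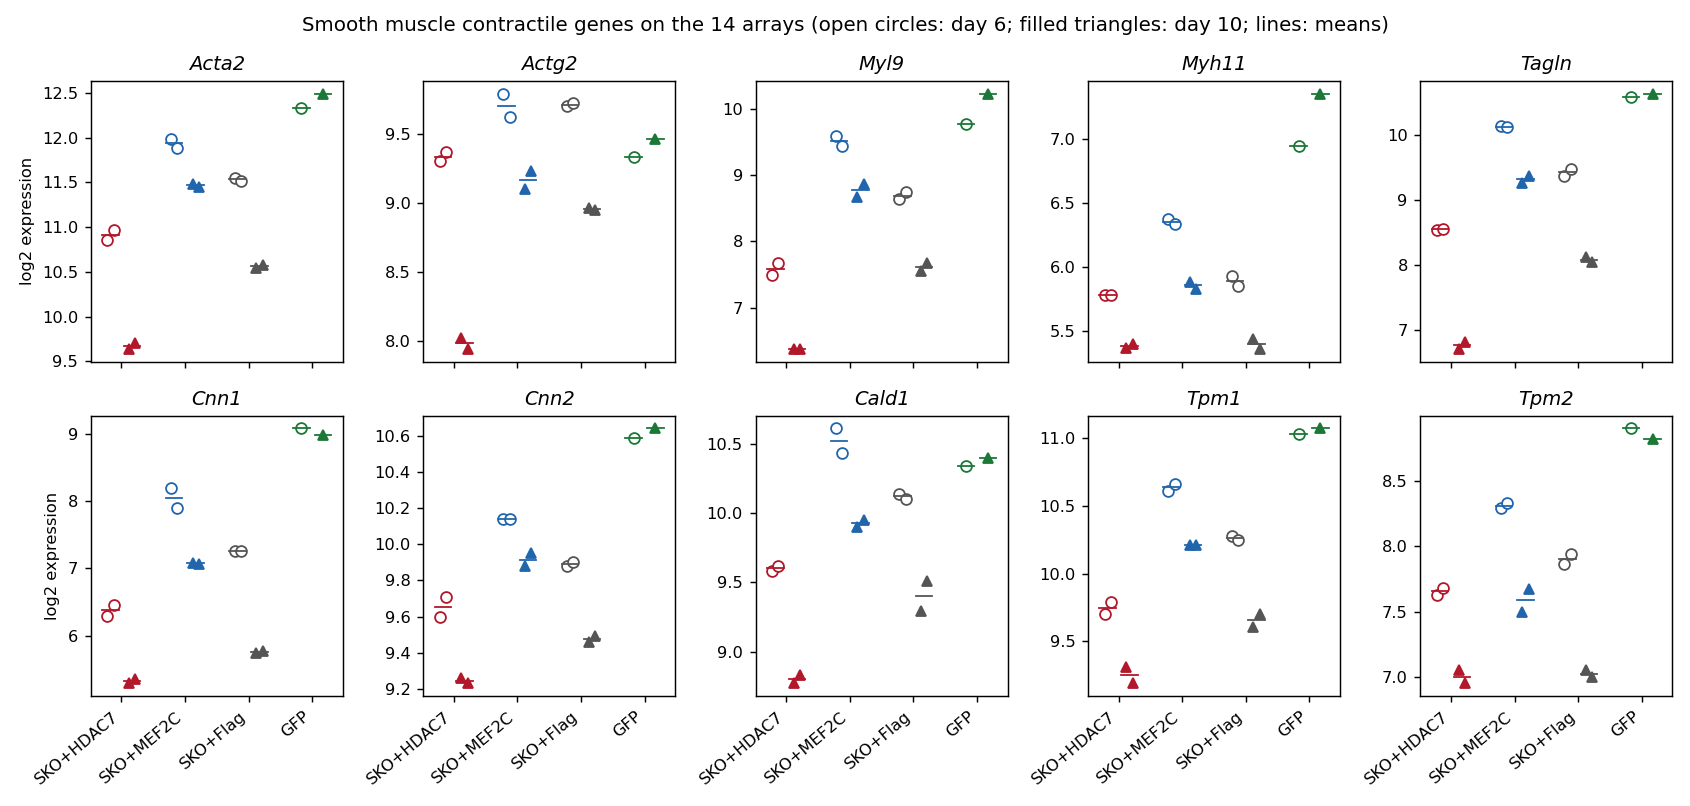
Log2 expression of each of the 10 genes (panels, each with its own scale) on every array, by vector; open circles are day 6, filled triangles day 10, and lines are group means. In each SKO group and gene both day 10 arrays lie below both day 6 arrays, and SKO+HDAC7 at day 10 has the lowest mean in all 10 genes. The shares of all genes with either pattern were not counted.

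Acta2 encodes smooth muscle alpha actin, the actin of myofibroblast stress fibres. At day 6 it read 10.86 and 10.97 in SKO+HDAC7, 11.99 and 11.88 in SKO+MEF2C, 11.55 and 11.52 in SKO+Flag and 12.33 in GFP. At day 10 it read 9.64 and 9.71 in SKO+HDAC7, 11.48 and 11.45 in SKO+MEF2C, 10.54 and 10.58 in SKO+Flag and 12.49 in GFP. The groups did not overlap on either day: HDAC7 arrays were lowest, then Flag, then MEF2C, then GFP. Averaged over both days it fell by 0.75 ± 0.04 with HDAC7 (SE, limma adjusted p = 2.4e-06) and rose by 0.65 ± 0.04 with MEF2C (limma adjusted p = 7.6e-06). SKO+HDAC7 lay 2.65-fold below SKO+MEF2C (log2 difference -1.40 ± 0.04, limma adjusted p = 6.4e-09).

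Actg2 encodes smooth muscle gamma actin, the enteric form, and had an order of groups of its own at day 6. At day 6 it read 9.30 and 9.37 in SKO+HDAC7, 9.79 and 9.62 in SKO+MEF2C, 9.70 and 9.72 in SKO+Flag and 9.33 in GFP. At day 10 it read 8.02 and 7.94 in SKO+HDAC7, 9.10 and 9.23 in SKO+MEF2C, 8.96 and 8.95 in SKO+Flag and 9.46 in GFP. At day 6 the MEF2C and Flag arrays overlapped and both lay above GFP, an order seen in no other member. It fell with HDAC7 by 0.67 ± 0.05 (limma adjusted p = 1.6e-05). The MEF2C difference of 0.10 (95% interval -0.01 to 0.22) missed the threshold (limma adjusted p = 0.28). The 2 smooth muscle actins and the striated muscle actins Acta1 and Actc1 are close in sequence, and whether their probes cross-hybridise was not checked.

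Myl9 encodes the regulatory light chain of smooth muscle myosin, whose phosphorylation starts contraction. At day 6 it read 7.50 and 7.67 in SKO+HDAC7, 9.59 and 9.44 in SKO+MEF2C, 8.64 and 8.74 in SKO+Flag and 9.77 in GFP. At day 10 it read 6.38 and 6.38 in SKO+HDAC7, 8.67 and 8.87 in SKO+MEF2C, 7.55 and 7.67 in SKO+Flag and 10.23 in GFP. Both HDAC7 arrays were lowest and both MEF2C arrays stood between Flag and GFP on each day. It fell by 1.17 ± 0.06 with HDAC7 (limma adjusted p = 1.3e-06) and rose by 0.99 ± 0.06 with MEF2C (limma adjusted p = 5.0e-06). It also had the widest gap between SKO+HDAC7 and SKO+MEF2C, 4.47-fold (log2 difference -2.16 ± 0.06, limma adjusted p = 3.7e-09).

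Myh11 encodes the smooth muscle myosin heavy chain, the most restricted marker of mature smooth muscle. At day 6 it read 5.78 and 5.78 in SKO+HDAC7, 6.37 and 6.33 in SKO+MEF2C, 5.93 and 5.85 in SKO+Flag and 6.94 in GFP. At day 10 it read 5.37 and 5.40 in SKO+HDAC7, 5.88 and 5.83 in SKO+MEF2C, 5.44 and 5.36 in SKO+Flag and 7.35 in GFP. The day 10 values of SKO+HDAC7 and SKO+Flag overlap, and all 4 lie below their array medians, so they are not shown to be above background. The HDAC7 difference was -0.06 (95% interval -0.15 to 0.03, limma adjusted p = 0.41) over both days. With MEF2C it rose by 0.46 ± 0.04 (limma adjusted p = 5.0e-05). That rise uses the SKO+Flag day 10 arrays, so its size is uncertain.

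Tagln encodes transgelin (SM22), an actin-binding protein of the calponin family. At day 6 it read 8.54 and 8.56 in SKO+HDAC7, 10.14 and 10.13 in SKO+MEF2C, 9.38 and 9.48 in SKO+Flag and 10.59 in GFP. At day 10 it read 6.71 and 6.82 in SKO+HDAC7, 9.27 and 9.37 in SKO+MEF2C, 8.12 and 8.05 in SKO+Flag and 10.64 in GFP. All groups were separate on both days, and its range over the 14 arrays, 3.93 on the log2 scale, was the widest of the 10 genes. It fell by 1.10 ± 0.05 with HDAC7 (limma adjusted p = 3.7e-07) and rose by 0.97 ± 0.05 with MEF2C (limma adjusted p = 9.4e-07).

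Cnn1 encodes calponin 1, the calponin of differentiated smooth muscle. At day 6 it read 6.29 and 6.46 in SKO+HDAC7, 8.20 and 7.90 in SKO+MEF2C, 7.26 and 7.26 in SKO+Flag and 9.08 in GFP. At day 10 it read 5.29 and 5.36 in SKO+HDAC7, 7.08 and 7.07 in SKO+MEF2C, 5.75 and 5.78 in SKO+Flag and 8.99 in GFP. The groups were separate on both days, but the day 10 HDAC7 arrays lie below their array medians, so they are not shown to be above background. The day 10 SKO+Flag arrays lie close to the array medians (5.68 to 5.76), so differences that use them are uncertain in size. Cnn1 fell by 0.66 ± 0.06 with HDAC7 (limma adjusted p = 8.8e-05) and rose by 1.05 ± 0.06 with MEF2C (limma adjusted p = 4.2e-06).

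The remaining members were calponin 2, caldesmon and the tropomyosins. Cnn2, the more widely expressed calponin 2, ranged over 1.41 log2 units on the 14 arrays, fell by 0.23 ± 0.04 with HDAC7 (limma adjusted p = 0.0045) and rose by 0.34 ± 0.04 with MEF2C (limma adjusted p = 3.9e-04). Cald1, which encodes caldesmon, an actin- and myosin-binding protein, fell by 0.56 ± 0.06 with HDAC7 and rose by 0.46 ± 0.06 with MEF2C (limma adjusted p = 1.3e-04 and 5.1e-04). Tpm1, a tropomyosin, fell by 0.46 ± 0.05 with HDAC7 and rose by 0.47 ± 0.05 with MEF2C (limma adjusted p = 1.0e-04 and 9.8e-05). Tpm2, the other tropomyosin, rose by 0.49 ± 0.05 with MEF2C (limma adjusted p = 1.2e-04). Its HDAC7 difference of -0.13 (95% interval -0.24 to -0.02) missed the threshold (limma adjusted p = 0.12). At day 10 Tpm2 read 7.05 and 6.95 in SKO+HDAC7, and both SKO+Flag arrays lay within that range, above the array medians.

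**Figure D2:**
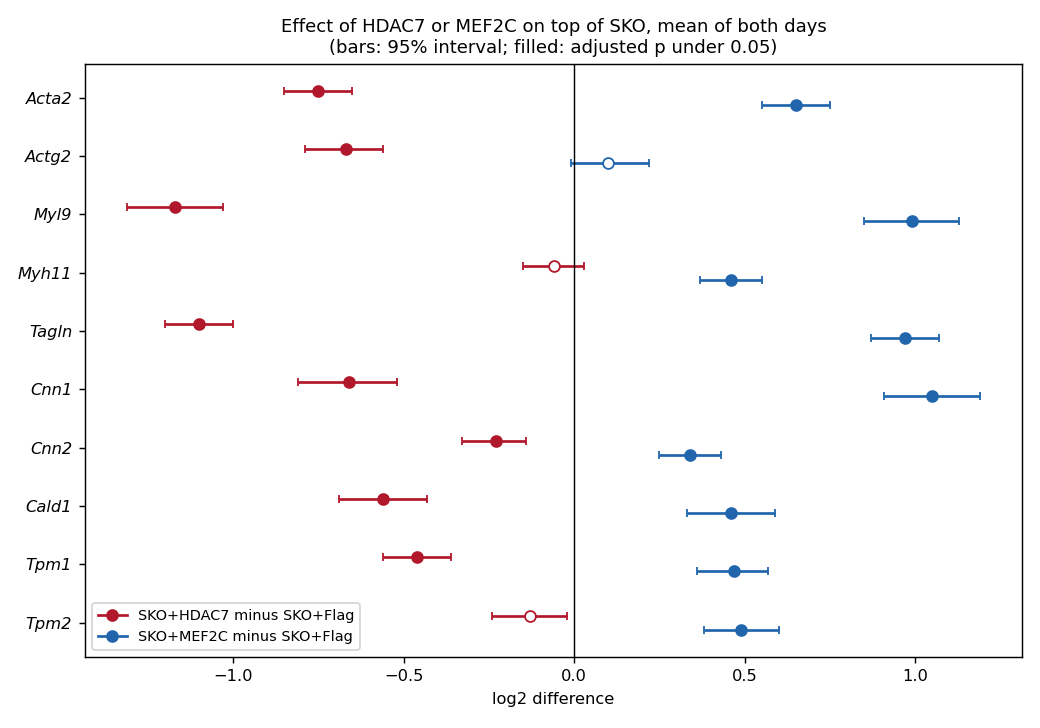
Log2 difference of SKO+HDAC7 (red) and SKO+MEF2C (blue) from SKO+Flag, mean of both days, for each gene, with 95% intervals from the limma fit; filled points have an adjusted p under 0.05. HDAC7 points lie between -1.17 and -0.06 and MEF2C points between 0.10 and 1.05; the open points are Myh11 and Tpm2 under HDAC7 and Actg2 under MEF2C.

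Relative to GFP fibroblasts most of these genes were lower in SKO cells, with Actg2 and Cald1 as exceptions in some groups. In SKO+Flag 9 of 10 fell relative to GFP, where 18.2% of all genes fell, in SKO+HDAC7 all 10 (15.9% of all genes) and in SKO+MEF2C 8 of 10 (14.6% of all genes). None rose as the mean of both days. The members' medians were -1.55 in SKO+HDAC7, -0.78 in SKO+MEF2C and -1.38 in SKO+Flag. Myl9 was at -3.01 ± 0.08 in SKO+HDAC7, -0.86 ± 0.08 in SKO+MEF2C and -1.85 ± 0.08 in SKO+Flag (limma adjusted p of 6.2e-06 or less), and Tagln at -2.96, -0.89 and -1.86 in the same order. Cnn1 was at -1.47 ± 0.08 in SKO+MEF2C and -2.52 ± 0.08 in SKO+Flag (limma adjusted p = 8.5e-08 and 9.9e-10). Its value in SKO+HDAC7, -3.19, includes the day 10 arrays that are not shown to be above background. The size of that fall is therefore uncertain, and the same holds for Myh11 in SKO+HDAC7 and SKO+Flag. The SKO+Flag value of Cnn1 includes day 10 arrays close to the array median, so its size is uncertain too. In SKO+MEF2C, Actg2 (0.04, 95% interval -0.10 to 0.18) and Cald1 (-0.15, 95% interval -0.31 to 0.01) did not differ from GFP by the limma test (adjusted p = 0.68 and 0.15). After quantile normalization Cald1 was at -0.27 and passed (adjusted p = 0.006). Actg2 in SKO+Flag was at -0.06 (95% interval -0.20 to 0.08, limma adjusted p = 0.50). These tests use 1 GFP array a day, whose spread is taken from the SKO groups, and the 3 comparisons share those arrays. Markers moved with these results: of 6 fibroblast markers 4 were lower than GFP in SKO+HDAC7, 4 in SKO+MEF2C and 5 in SKO+Flag (medians -1.06, -0.92 and -0.94), and of 5 epithelial markers 4, 3 and 4 were higher. Their part in the fall relative to GFP was not tested.

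**Figure D3:**
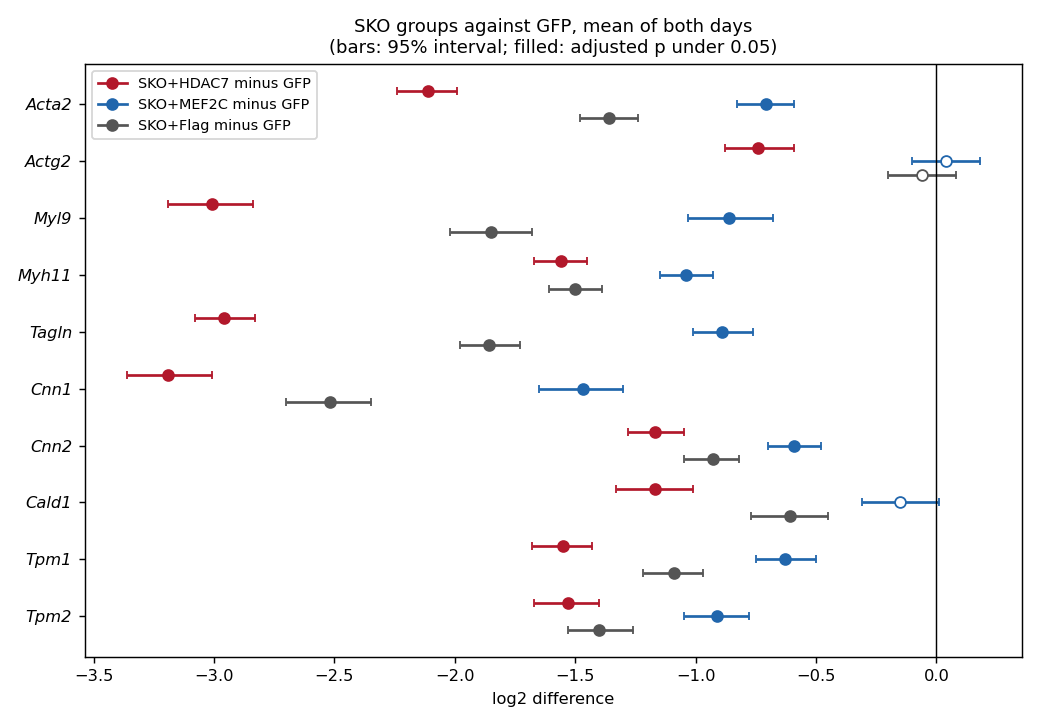
Log2 difference of each SKO group from GFP, mean of both days, with 95% intervals from the limma fit; filled points have an adjusted p under 0.05. In 9 genes all 3 points lie below 0, in the order HDAC7, Flag, MEF2C from low to high; in Actg2 the MEF2C and Flag points lie at 0.04 and -0.06.

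Against GFP the days can be read apart for Actg2 and Cald1. Actg2 in SKO+Flag was higher than GFP by 0.38 ± 0.09 at day 6 (limma adjusted p = 0.01) and at -0.51 ± 0.09 at day 10 (limma adjusted p = 0.0014), so that the mean of both days hides opposite signs. The day 6 value was 0.25 after quantile normalization (adjusted p = 0.062). Cald1 in SKO+Flag was at -0.22 ± 0.10 at day 6 (limma adjusted p = 0.15) and 1.99-fold lower than GFP at day 10 (limma adjusted p = 1.9e-05). Counting all members, 8 were lower and 1 higher at day 6, where 10.8% of all genes were lower and 13.2% higher, and 10 lower at day 10, where 13.2% of all genes were lower. The median was -0.90 at day 6 and -1.86 at day 10.

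Contractile genes fell further with time in all 3 SKO groups. From day 6 to day 10, 10 of 10 fell in SKO+HDAC7 (6.7% of all genes fell), 9 of 10 in SKO+MEF2C (1.23%) and 10 of 10 in SKO+Flag (4.33%). The medians were -0.92, -0.57 and -0.81. Tagln fell by 1.79 ± 0.07 in SKO+HDAC7 (limma adjusted p = 1.4e-07), by 0.82 ± 0.07 in SKO+MEF2C (limma adjusted p = 1.2e-04) and by 1.35 ± 0.07 in SKO+Flag (limma adjusted p = 1.7e-06). Cnn1 fell by 1.05 in SKO+HDAC7, 0.98 in SKO+MEF2C and 1.49 in SKO+Flag. The value for SKO+HDAC7 rests on day 10 arrays not shown to be above background, and the value for SKO+Flag on day 10 arrays close to the array median. For Myh11 the day 10 arrays of both groups are not shown to be above background, so the size of its falls there is uncertain. The exception was Cnn2 in SKO+MEF2C, at -0.22 ± 0.06 (limma adjusted p = 0.082). Of 5 epithelial markers 4 rose with time in SKO+HDAC7, 2 in SKO+MEF2C and 4 in SKO+Flag (medians 1.25, 0.34 and 0.66). Of 6 fibroblast markers 1 rose and 3 fell in SKO+HDAC7, 1 rose and 1 fell in SKO+MEF2C, and 2 rose and 2 fell in SKO+Flag. Their part in the change with time was not tested. In GFP, with 1 array a day and no test, 8 of 10 read higher at day 10, by up to 0.46 in Myl9 (10.23 against 9.77). In Tpm1, Tagln, Cnn2 and Cald1 the gap was 0.04, 0.05, 0.05 and 0.06, below the SD of 0.12 to 0.172 between replicate arrays. In Acta2 and Actg2 it was 0.16 and 0.13, within that range of SD, and in Myh11 it was 0.41. Cnn1 and Tpm2 read lower at day 10, by 0.09 and 0.08, also below that range. The share of all genes reading higher at day 10 in GFP was not counted.

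**Figure D4:**
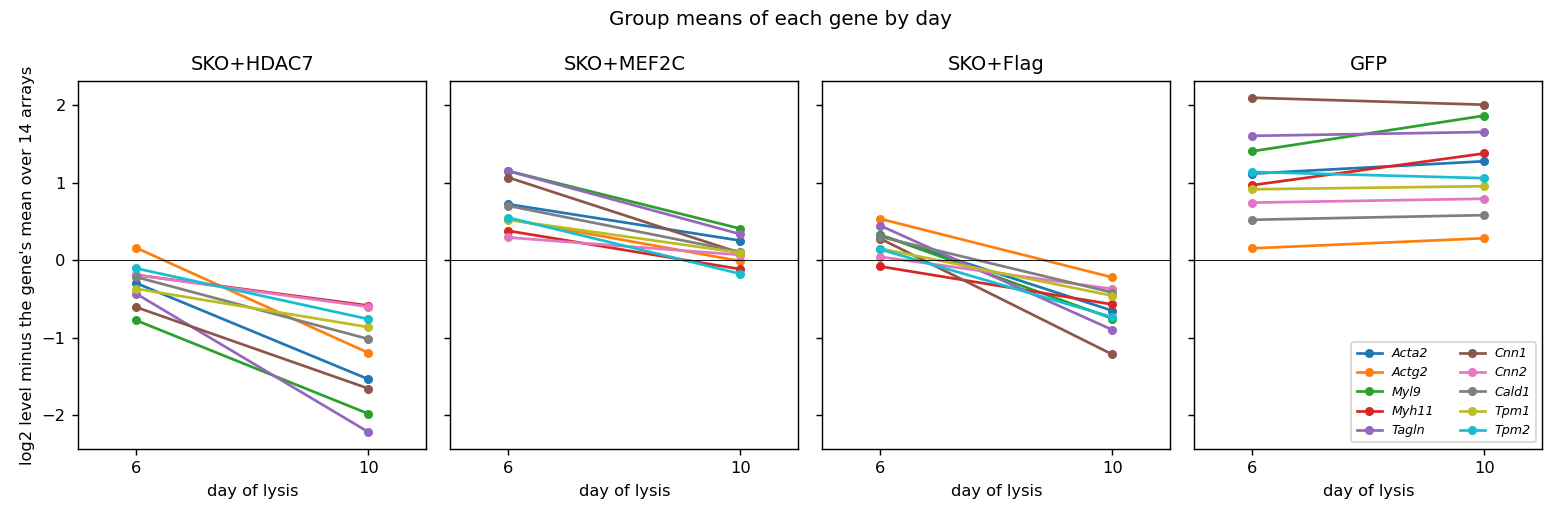
Group mean of each gene at day 6 and day 10, as the log2 level minus that gene's mean over the 14 arrays, in a panel per vector (GFP: single arrays). All lines fall in the 3 SKO panels, and the GFP lines lie above 0 at both days.

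The effects of the added factors were read on each day as well. With HDAC7, 8 of 10 members fell at day 6 (2.76% of all genes) and 8 of 10 at day 10 (3.95%), with Myh11 and Tpm2 as the exceptions on both days. Cnn2 was near the threshold on both (limma adjusted p = 0.049 and 0.039) and lost its call under several alternatives. Without SKO+HDAC7 day 6 replicate 1 fewer members passed at day 6, and calls over all genes dropped as well. That fit leaves 1 array in the group, so the drop is not read as particular to the members. With MEF2C, 8 of 10 rose at day 6 (1.33% of all genes) and 9 of 10 at day 10 (4% of all genes). The day 6 count for MEF2C was also lower without SKO+Flag day 6 replicate 1 or replicate 2 and without SKO+MEF2C day 6 replicate 1. Calls over all genes dropped too without SKO+MEF2C day 6 replicate 1. Actg2 fell with HDAC7 by 0.37 ± 0.07 at day 6 and by 0.97 ± 0.07 at day 10 (limma adjusted p = 0.018 and 2.4e-05). Acta2 rose with MEF2C by 0.40 ± 0.06 at day 6 and by 0.90 ± 0.06 at day 10 (limma adjusted p = 0.0072 and 1.7e-05).

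By the test of the change itself, day 10 minus day 6, 0 of 10 members passed in limma for HDAC7 (0.125% of all genes did) and 0 of 10 for MEF2C (0.0853%), with 5 members each at an unadjusted p under 0.05. For the HDAC7 effect the change was -0.60 in Actg2 (95% interval -0.83 to -0.37, limma adjusted p = 0.06) and -0.44 in Tagln (limma adjusted p = 0.11). The value for Cnn1 (0.44, limma adjusted p = 0.22) rests on the SKO+HDAC7 day 10 arrays, which are not shown to be above background, and cannot be read as a smaller effect. For the MEF2C effect the largest changes were in Tagln (0.53, limma adjusted p = 0.083), Cnn1 (0.52, limma adjusted p = 0.26) and Acta2 (0.50, limma adjusted p = 0.087). The Cnn1 value uses SKO+Flag day 10 arrays close to the array median, so its size is uncertain. Actg2, Tagln and Acta2 lie close to the threshold. Without SKO+Flag day 10 replicate 2, Actg2 and Tagln were at -0.60 and -0.47 for HDAC7 and Acta2 at 0.52 for MEF2C. Calls over all genes rose strongly for both changes without that array, so calls of members there are not read as particular to them.

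Among the SKO groups, 6 of 10 members (Acta2, Tagln, Cnn1, Myh11, Tpm1 and Cald1) had 1 order of mean level. The order was taken from Acta2, which therefore matches by construction, and the share of all genes with it was not counted. From high to low it ran SKO+MEF2C day 6, SKO+Flag day 6, SKO+MEF2C day 10, SKO+HDAC7 day 6, SKO+Flag day 10 and SKO+HDAC7 day 10. For Acta2 the closest neighbours were SKO+Flag day 6 and SKO+MEF2C day 10, 0.07 apart with no overlap of arrays. For Myh11 these same neighbours overlapped (0.03 apart), as did SKO+Flag and SKO+HDAC7 at day 10 (0.02 apart). For Tpm1, SKO+HDAC7 day 6 and SKO+Flag day 10 overlapped (0.09 apart). GFP held the highest mean in 8 of 10 genes, and the share of all genes highest in GFP was not counted. The members not highest in GFP were Actg2, highest in SKO+Flag at day 6, and Cald1, highest in SKO+MEF2C at day 6.

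Tpm1 and Acta2 lay closest to the members' median profile, at a root mean square distance of 0.15 and 0.18 log2 units over 14 arrays after each gene's mean was subtracted. Tagln (0.53), Cnn1 (0.52) and Myl9 (0.50) moved more than that profile, and Actg2 lay at 0.42. The non-member genes nearest to the median profile were Phldb2 (0.13), the secreted protease gene Adamts1 (0.15), and then Adm, which encodes adrenomedullin, the surface glycoprotein gene Thy1, the non-muscle myosin heavy chain gene Myh10 and the cGMP-dependent kinase gene Prkg1 (each 0.17). Nearest to Acta2 were Ltbp2 (0.13), Adamts1 (0.14) and Gask1b (0.16). Nearest to Tagln were its fellow member Myl9 (0.20), the collagen cross-linking enzyme gene Lox (0.31) and the member Cnn1 (0.33).

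Other genes of the actomyosin and SRF system moved in part. Of 44 measured, 1 rose and 8 fell with HDAC7 (median -0.04; 4.83% and 6.06% of all genes), and 14 rose and 0 fell with MEF2C (median 0.14; 5.49% and 4.82% of all genes). In SKO+Flag relative to GFP 6 rose and 27 fell (median -0.32; 17.5% and 18.2% of all genes). SRF and its cofactors had 0 of 4 called with HDAC7 and 0 of 4 with MEF2C. With HDAC7, Srf was at -0.02 ± 0.05 (limma adjusted p = 0.89), Myocd at 0.12, Mrtfa at -0.11 and Mrtfb at 0.01. With MEF2C, Srf was at 0.18 ± 0.05 (limma adjusted p = 0.057), Myocd at 0.03, Mrtfa at 0.09 and Mrtfb at -0.01. Between SKO+HDAC7 and SKO+MEF2C, Srf and Mrtfa each had a log2 difference of -0.20 (limma adjusted p = 0.021 and 0.035). In SKO+Flag relative to GFP, Mrtfa fell by 0.60 ± 0.07 and Srf by 0.23 ± 0.07 (limma adjusted p = 6.3e-05 and 0.021).

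Of 14 focal adhesion and LIM protein genes, 0 rose and 5 fell with HDAC7, and 7 rose and 0 fell with MEF2C. Fhl1, a LIM domain protein gene, fell by 0.80 ± 0.04 with HDAC7 and rose by 0.94 ± 0.04 with MEF2C (limma adjusted p = 1.2e-06 and 7.7e-07). Its relative Fhl2 was at -0.49 and 0.64, and Vcl, which encodes the adhesion protein vinculin, at -0.47 and 0.47. Of 10 myosin chain and regulator genes, 2 fell with HDAC7 (Myh10 at -0.41, Myl12a at -0.19) and 3 rose with MEF2C (Myh10 at 0.39, Myl12a at 0.36, Myh9 at 0.17). Mylk, the gene of the kinase that phosphorylates the regulatory light chain, was at -0.05 with HDAC7 and 0.01 with MEF2C (limma adjusted p = 0.54 and 0.92), and lay below the array median on 13 of 14 arrays.

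Of 6 smooth muscle filament and scaffold genes, Nexn, which encodes nexilin, was the 1 that fell with HDAC7 (-0.44 ± 0.07, limma adjusted p = 0.0031), and 2 rose with MEF2C: Nexn by 0.40 and the intermediate filament gene Des by 0.49. Nexn lay below the array median on 7 of 14 arrays and Des on 6 of 14, so these sizes are uncertain. Of 7 other tropomyosin, calponin and cross-linker genes, Tagln2, a widely expressed relative of Tagln, rose with HDAC7 by 0.50 ± 0.04 (limma adjusted p = 2.9e-05), opposite in sign to Tagln, and the alpha-actinin gene Actn1 rose with MEF2C by 0.24. Of 3 other actins, skeletal Acta1 rose with MEF2C by 0.38 ± 0.10 (limma adjusted p = 0.037). Cytoplasmic Actb was at 0.05 with HDAC7, 0.04 with MEF2C and 0.00 in SKO+Flag relative to GFP, with limma adjusted p of 0.52, 0.63 and 0.99.

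**Figure D5:**
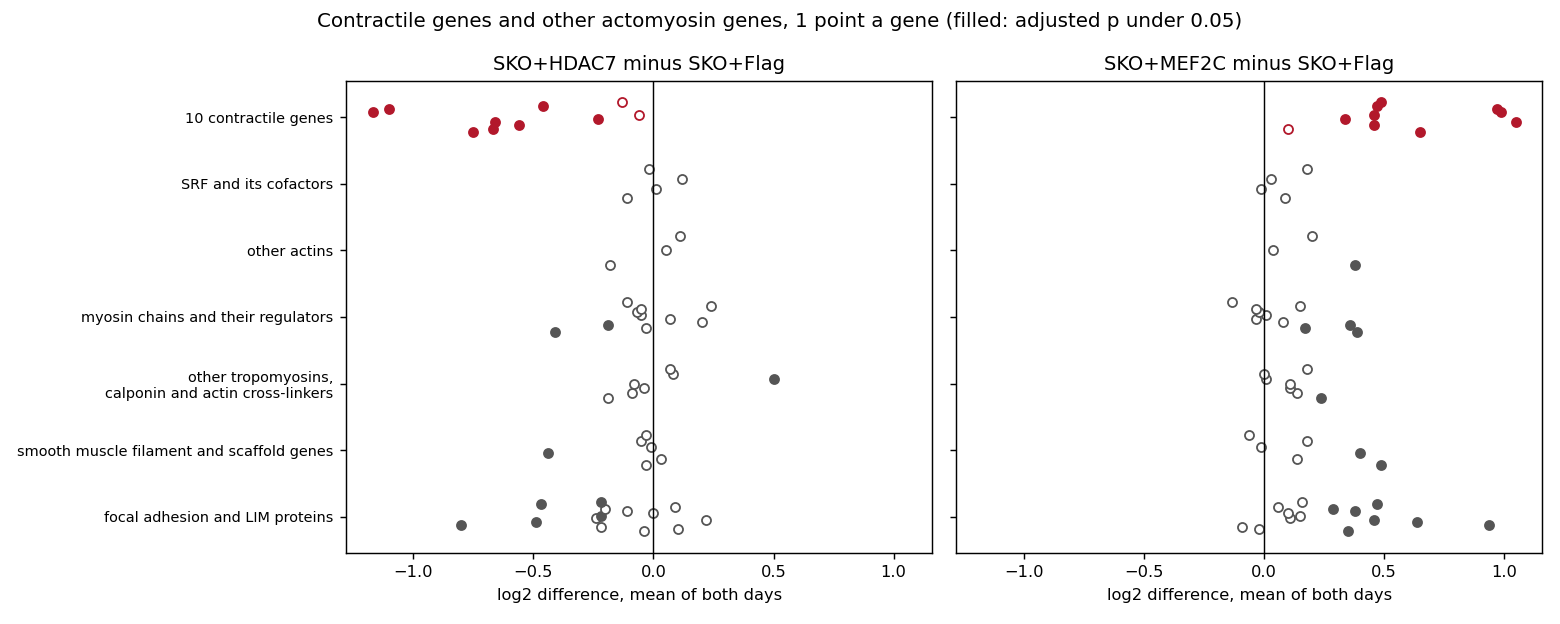
Log2 difference from SKO+Flag, mean of both days, for the 10 contractile genes (red) and 6 lists of other actomyosin genes (grey), 1 point a gene; filled points have an adjusted p under 0.05. The contractile genes reach -1.17 with HDAC7 and 1.05 with MEF2C, and the other genes reach -0.80 and 0.94 (both Fhl1).

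Epithelial markers moved with these groups in the opposite direction. Of 5 keratinocyte and epithelial markers 4 rose with HDAC7 and 4 fell with MEF2C, and their mean level per array was 6.10 to 7.54 in SKO+HDAC7, 5.55 to 6.10 in SKO+MEF2C, 5.87 to 6.85 in SKO+Flag and 5.59 to 5.61 in GFP. Krt5 lay below the array median throughout. Of 6 fibroblast markers 2 rose and 3 fell with HDAC7 and 1 rose with MEF2C. Of 6 pericyte markers 1 fell with HDAC7 and 2 rose with MEF2C, with means of 5.43 to 5.64, 5.82 to 5.84, 5.64 to 5.82 and 5.79 in the same 4 groups and Rgs5, Abcc9 and Higd1b below the median throughout. Of 8 striated muscle markers 1 rose and 1 fell with HDAC7 and 0 of 8 passed with MEF2C, with Myog, Myf5, Myh3 and Myh6 below the median throughout. Endothelial markers had 1 of 5 higher with HDAC7, and 1 higher and 1 lower with MEF2C. Blood markers had 1 of 5 higher with HDAC7 and 0 of 5 called with MEF2C. The part of any of these in the contractile gene results was not tested.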

How the data were processed

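The authors deposited log2 values for each probe set, made with RMA and Partek per the submitters' processing notes, which give no versions or settings. The sources used here name no genome build. Values were used as they stood. Of 28815 probe sets, 21780 had 1 gene symbol, 1605 several and 5430 none here; a gene with several probe sets was represented by the brightest, leaving 19935 genes. Symbols were checked through a RefSeq gene table (21689 matched). Replicate arrays differed with an SD of 0.12 to 0.172 and none were identical. The number of arrays limits the precision.

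One limma 3.58.1 group-means model (R 4.3.3; lmFit, eBayes) was fitted to all genes on all 14 arrays in 8 groups, with 6 residual and 4.71 prior degrees of freedom, and adjusted by Benjamini-Hochberg over all genes within a comparison. The procedure was tested on simulated data. Members and gene lists were chosen with earlier results of these data known. All 10 members are named; of other listed genes, the SRF genes and up to 3 a list by size among those called; of like genes, the nearest by distance. Alternatives were the prior, array weights, samples fitted, scaling, probe set choice, a level filter, a minimum difference of 1, the experiment number as a block and leaving out each array.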

Additional observations from a re-analysis of the deposited data

How the results depend on the processing

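Of 170 member results (10 genes in 17 comparisons), 135 passed and none of these changed sign under any alternative. The sign changed 19 times, among results that did not pass: Actg2 in SKO+MEF2C relative to GFP (-0.07 after quantile normalization, 0.00 to 0.09 without an array), Actg2 with MEF2C at day 6 (0.00 after quantile normalization, -0.09 to 0.09 without an array, with 0.01 in 1 case), Tpm2 (-0.07 to 0.02, with 0.00 in 1 case) and Myh11 (-0.06 to 0.02) with HDAC7 at day 10 without an array, and the change between days of the HDAC7 effect in Cnn2 (-0.01 after quantile normalization and after median centring, -0.05 to 0.06 without an array) and Cald1 (-0.19 to 0.03 without an array), and of the MEF2C effect in Myh11 (-0.05 to 0.03 without an array). With a difference of at least 1 also required, members called numbered 2 for HDAC7 and 1 for MEF2C relative to SKO+Flag, 5 for SKO+HDAC7 relative to SKO+MEF2C, 2 for SKO+MEF2C relative to GFP, 1 and 2 for HDAC7 at day 6 and day 10, 0 and 3 for MEF2C at day 6 and day 10, 5 for SKO+Flag relative to GFP at day 6, and 5, 0 and 3 for the change with time in SKO+HDAC7, SKO+MEF2C and SKO+Flag. Shares of all genes under that cut are not given here. For the change of the effects between days, where 0 passed, an intensity-dependent robust prior called 1 member for HDAC7 and 2 for MEF2C. Genes above the median level gave 1 and 1, and quantile normalization 1 for HDAC7. Over all genes, quantile normalization gave 15 higher and 48 lower for the HDAC7 change, against 8 and 17 as reported. Calls over all genes under the prior and the level filter are not given here. The cause was not tested. Leaving out each array gave 5 to 6 members for HDAC7 at day 6, 6 to 7 at day 10, 4 to 6 for MEF2C at day 6, 0 to 2 for the change of the HDAC7 effect, 0 to 1 for that of the MEF2C effect and 8 to 9 for the fall with time in SKO+MEF2C; without a GFP array no mean over both days relative to GFP could be made. Fitting the compared groups alone ended 6 calls within a day: Cnn2 and Actg2 at day 6 and Cnn2 and Tpm1 at day 10 with HDAC7, and Cald1 on both days with MEF2C. Experiment numbers were not shown to pair the arrays (deviations correlated at over 0.1 in 4 of 15 pairs of groups, from -0.24 to 0.18). Between groups of the same day the correlations ran from -0.09 to 0.18, and between groups of different days from -0.24 to 0.13. The replicate block left 7 of the 8 members for HDAC7 at day 6 (Cnn2 at -0.24, adjusted p = 0.054) and, within each day, 7 of 8 at day 10 (Cnn2 at -0.23, adjusted p = 0.054), and ended no other call; a fit without the GFP arrays, added after seeing the data, changed none.

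Over all genes, median centring gave 698 higher and 1520 lower for HDAC7 (963 and 1208 as reported), 863 and 1142 for MEF2C (1094 and 960), and 471 and 931 for HDAC7 at day 10 (663 and 787). Calls over all genes ranged over the alternatives, a minimum difference apart, from 293 to 1027 for HDAC7 at day 6 (914 as reported), 501 to 1522 at day 10 (1450), 157 to 717 for MEF2C at day 6 (618), 502 to 1457 at day 10 (1397), 3012 to 5584 for SKO+Flag relative to GFP at day 10 (5359), 0 to 483 for the change of the HDAC7 effect (25), 1 to 213 for that of the MEF2C effect (17), and 1571 to 3153, 250 to 994 and 504 to 1905 for the change with time in SKO+HDAC7, SKO+MEF2C and SKO+Flag (2902, 614 and 1610). Values near the array median, as for Myh11, limit what a fall can show.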
